A study of Homo sapiens with 6 samples.

Results

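p53 target genes and the genes that feed back on p53 were compared between highly invasive H460 cells (H-INV) and weakly invasive ones (L-INV). The members were 31 genes listed by name, and their probes were those that the platform annotation gives 1 of these symbols. In that annotation 29 of the 31 had a probe, 46 probes in all among the 47322 of the array, and 26 passed the requirement that 3 or more of the 6 arrays be above background and were tested among 10279 genes. BTG2 and FDXR had no probe in the annotation table and are not analysed here, and neither is p53's own transcript.

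H460 is an established human large cell lung carcinoma line. H-INV cells were those that crossed an insert coated with basement membrane extract, and L-INV cells were those that stayed in it. The labels give 48 hours for each passage and 6 rounds of selection, while the methods of the study give another duration and another number of rounds. Both groups carried the H460 genotype, were kept in glucose-free medium with serum, and were selected again after thawing, so neither group is unselected H460 and no such sample was compared. RNA came from 3 different sets of cells per group, with 1 array each, all on 1 Illumina HT-12 v4 BeadChip. H-INV took the last positions of the chip and L-INV the first ones, so position and group cannot be told apart. Whether the sets were selected separately is not stated in the sources used here, and the spread behind each p-value may therefore be technical.

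p53 is a transcription factor that DNA damage and other stresses stabilize. It binds response elements near its target genes and raises their transcripts, which halt the cell cycle, trigger apoptosis, repair DNA or adjust metabolism. MDM2, itself a target, marks p53 for degradation and so closes a feedback loop. The H460 line is known to carry wild-type p53.

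The arrays were alike in depth: their median intensities were 124 to 126 in H-INV and 123 to 134 in L-INV, and 16368 to 16985 probes were above background on each array. Over the genes tested, arrays of the same group correlated at 0.995 to 0.996 and arrays of different groups at 0.920 to 0.927. Of the lung epithelial markers, the keratins KRT8, KRT18 and KRT19 were measured on every array, with a summed normalized intensity of 1840 to 1900 in H-INV against 7640 to 7720 in L-INV. KRT19 carried this difference (17.4-fold lower in H-INV), while KRT8 was 1.23-fold lower and KRT18 did not pass (adjusted p = 0.0624). NKX2-1, SFTPB, SFTPC and NAPSA, which define lung adenocarcinoma and alveolar cells, were above background on 0 arrays. Of 6 fibroblast markers only COL3A1 was tested, at 1190 to 1540 in H-INV against 595 to 626 in L-INV, while COL1A1 exceeded background on 2 arrays of H-INV and 0 of L-INV, PDGFRB, the other way round, on 0 of H-INV and 2 of L-INV, and COL1A2, DCN and LUM on 0 arrays. Of 7 blood and endothelial markers, CD68 and CD14 summed to 270 to 298 in H-INV against 718 to 813 in L-INV, and the defining genes PTPRC, CD3E, PECAM1, VWF and CDH5 were above background on 0 arrays. The part of any other cell type in the results was not tested, and in such bulk RNA fewer cells of a type and less RNA per cell cannot be told apart.

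The promoter windows of the members show where a p53 response element can be read in the sequence. The element is a pair of decamers, each with a C and a G at fixed core positions, and because the decamer pattern is its own reverse complement a scan of 1 strand covers both. RefSeq windows of 250 bases before to 50 bases after each annotated start (GRCh38.p14) were available for 25 members, 38 windows in all. With at most 3 mismatches and a spacer of 0 or 1 base, 8 members had an element, in 23.7% of their windows against 2.38% of all 35116 windows. This rule was chosen after the members' windows had been seen. With spacers of up to 13 bases, 10 members had an element, in 28.9% of their windows against 12.8% of all windows. The elements of the 6 tested members are printed because these genes fall into different classes of response. Capitals mark the element on the strand of the gene.
GDF15: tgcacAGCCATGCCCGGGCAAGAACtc
PMAIP1: gtcggGAGCGTGTCCGGGCAGGTCGcgctc
MDM2: gagctGGTCAAGTTCAGACACGTTCcgaaa
SESN1: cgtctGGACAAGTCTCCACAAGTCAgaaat
DDB2: gtttGAACAAGCCCTGGGCATGTTTggcgg
AEN: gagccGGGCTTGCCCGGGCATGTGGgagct

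These stretches lie at chr19:18386181-18386207 for GDF15, in its first transcribed bases, and at chr18:59899806-59899835 for PMAIP1, upstream of the gene, both on the plus strand. The MDM2 stretch, at chr12:68808918-68808947 on the plus strand, lies inside the annotated gene at position -94 or -101 from 2 internal start sites. That of SESN1 lies at chr6:109009013-109009042 on the minus strand, those of DDB2 and AEN at chr11:47214975-47215004 and chr15:88621301-88621330 on the plus strand, all 3 inside the annotated gene beside an internal start site. The DDB2 element had 0 mismatches, those of MDM2 and AEN 2, and those of GDF15, PMAIP1 and SESN1 3. GDF15, PMAIP1, MDM2 and SESN1 fell in H-INV cells, while DDB2 and AEN did not pass the test. A match is a run of letters, and a window without one says only that these letters are not in it.

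Most p53 targets that changed were lower in H-INV cells. Of the 26 members tested, 3 were higher and 15 lower in H-INV at an adjusted p under 0.05 (limma), and 8 did not pass. Over all genes tested, 32.6% were higher and 25.4% lower. When the pipeline of the study was rebuilt without its 2-fold threshold, 3 of the 29 members then tested were higher and 9 lower. Of the 20045 genes tested there, 12.5% were higher and 10.3% lower. With the 2-fold threshold 4 members passed in that pipeline, among 822 genes in all. The study reported another total, and the rebuild took the brightest probe of each named gene, a step its methods do not state. In the main test, past a 2-fold change as well, 0 members were higher and 4 lower, against 4.22% and 6.02% of all genes. The median log2 fold change of the members, H-INV over L-INV, was -0.34, against 0.05 over all genes. The arrays of the groups did not overlap for 20 of the 26 members, against 64.5% of all genes.

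**Figure D1:**
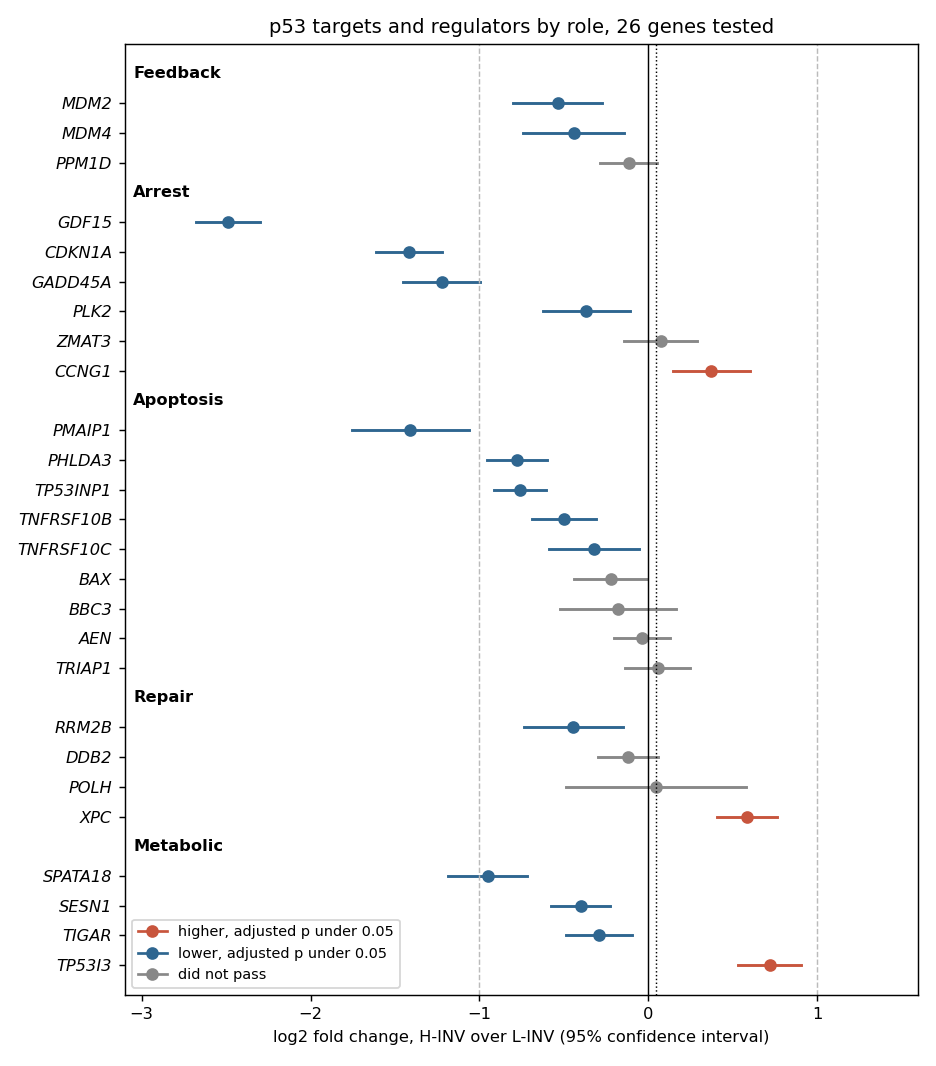
Log2 fold change of each of the 26 members tested, H-INV over L-INV, with its 95% confidence interval, grouped by role and coloured by call. The solid line is no change, the dotted line the median of all genes (0.05) and the dashed lines a 2-fold change; GDF15, CDKN1A, GADD45A and PMAIP1 lie beyond the left dashed line, and CCNG1, XPC and TP53I3 are the 3 members in the higher class.

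By role, the arrest targets had the lowest median, -0.79 over 6 genes, with 1 higher and 4 lower. Of 9 apoptosis targets 0 were higher and 5 lower (median -0.32). Of 4 metabolic targets 1 was higher and 3 lower (median -0.35), of 4 repair targets 1 was higher and 1 lower (median -0.04), and of 3 feedback genes 0 were higher and 2 lower (median -0.44). Over all genes 32.6% were higher and 25.4% lower, and the shares of the 4 repair targets, 25.0% each way, lay near these. The rank of the arrest targets rests on GDF15, a secreted cytokine filed in that role. Without it the middle value of the arrest targets is that of PLK2, -0.37, above the feedback median of -0.44. These counts are small, and no test between roles was made. 

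Among the feedback genes, MDM2, the ubiquitin ligase of p53, had log2 intensities of 5.56, 5.78 and 5.85 on the H-INV arrays, against 6.30, 6.06 and 6.45 on the L-INV arrays. Its highest H-INV array lay below its lowest L-INV array, and it fell by 0.54 ± 0.11 on the log2 scale (SE, adjusted p = 0.0038, limma, and 0.0736 in the rebuilt pipeline). This fall rests on 1 of its 2 probes, since the other was above background on 0 arrays. MDM4, a relative of MDM2 that binds and masks the activation domain of p53, had 5.96, 6.51 and 6.17 in H-INV, against 6.66, 6.74 and 6.57 in L-INV. The groups did not overlap, although H-INV array 2 came close to L-INV array 3, and MDM4 fell by 0.44 ± 0.13 (adjusted p = 0.0186). The MDM4 call was lost without H-INV array 1, H-INV array 3 or L-INV array 2, with adjusted p = 0.0503, 0.0536 and 0.0579. MDM2 and MDM4 were dim, with the floor of the H-INV arrays at 5.47, 5.39 and 5.49. The sizes of their falls depend on the background correction, and without it they were 0.21 and 0.20. PPM1D, the phosphatase WIP1 that switches off p53 and its activating kinases, had 8.22, 8.23 and 8.35 in H-INV and 8.47, 8.32 and 8.36 in L-INV. Its groups overlapped and its difference of -0.12 (95% interval -0.29 to 0.05) did not pass.

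GDF15 and CDKN1A, both counted with the arrest targets, had the largest differences of all members tested. GDF15, a secreted cytokine of the TGF-beta superfamily had log2 intensities of 9.91, 9.86 and 9.92 in H-INV, against 12.48, 12.46 and 12.23 in L-INV. Every H-INV array was more than 2 log2 units below every L-INV array, and GDF15 fell by 2.49 ± 0.08 (5.61-fold lower, adjusted p = 5.96e-08, limma). CDKN1A, which encodes the cyclin-dependent kinase inhibitor p21 and is the best known arrest target of p53, had 10.69, 10.44 and 10.44 in H-INV, against 11.98, 11.93 and 11.92 in L-INV. The 3 L-INV arrays were nearly identical, all H-INV arrays were lower, and CDKN1A fell by 1.42 ± 0.08 (2.67-fold lower, adjusted p = 2.05e-06). GADD45A, a stress sensor that binds PCNA and CDK1, had 7.91, 8.06 and 7.73 in H-INV, against 9.16, 9.22 and 8.99 in L-INV. Here too no array overlapped, and GADD45A fell by 1.22 ± 0.10 (2.33-fold lower, adjusted p = 1.45e-05). 

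The remaining arrest targets changed little or in the other direction. PLK2, a polo-like kinase of the stress response, had 7.96, 7.94 and 7.83 in H-INV, against 8.27, 8.51 and 8.06 in L-INV. It fell by 0.37 ± 0.11 (adjusted p = 0.0209), but not without H-INV array 3 or L-INV array 2 (adjusted p = 0.0660 and 0.0532). CCNG1, cyclin G1, which recruits the phosphatase PP2A to MDM2, was 1 of the 3 members that rose, with 11.49, 11.38 and 11.69 in H-INV against 11.07, 11.28 and 11.08 in L-INV. The groups stood close but apart, and its log2 fold change was 0.37 ± 0.10 (adjusted p = 0.0111, and 0.0580 by one-way ANOVA). ZMAT3, an RNA-binding zinc finger protein, was measured by its brightest probe at 11.73, 11.75 and 11.94 in H-INV, overlapping 11.59, 11.73 and 11.87 in L-INV (log2 fold change 0.07, adjusted p = 0.534). PLK3 was above background on 0 of the 6 arrays and has no fold change.

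**Figure D2:**
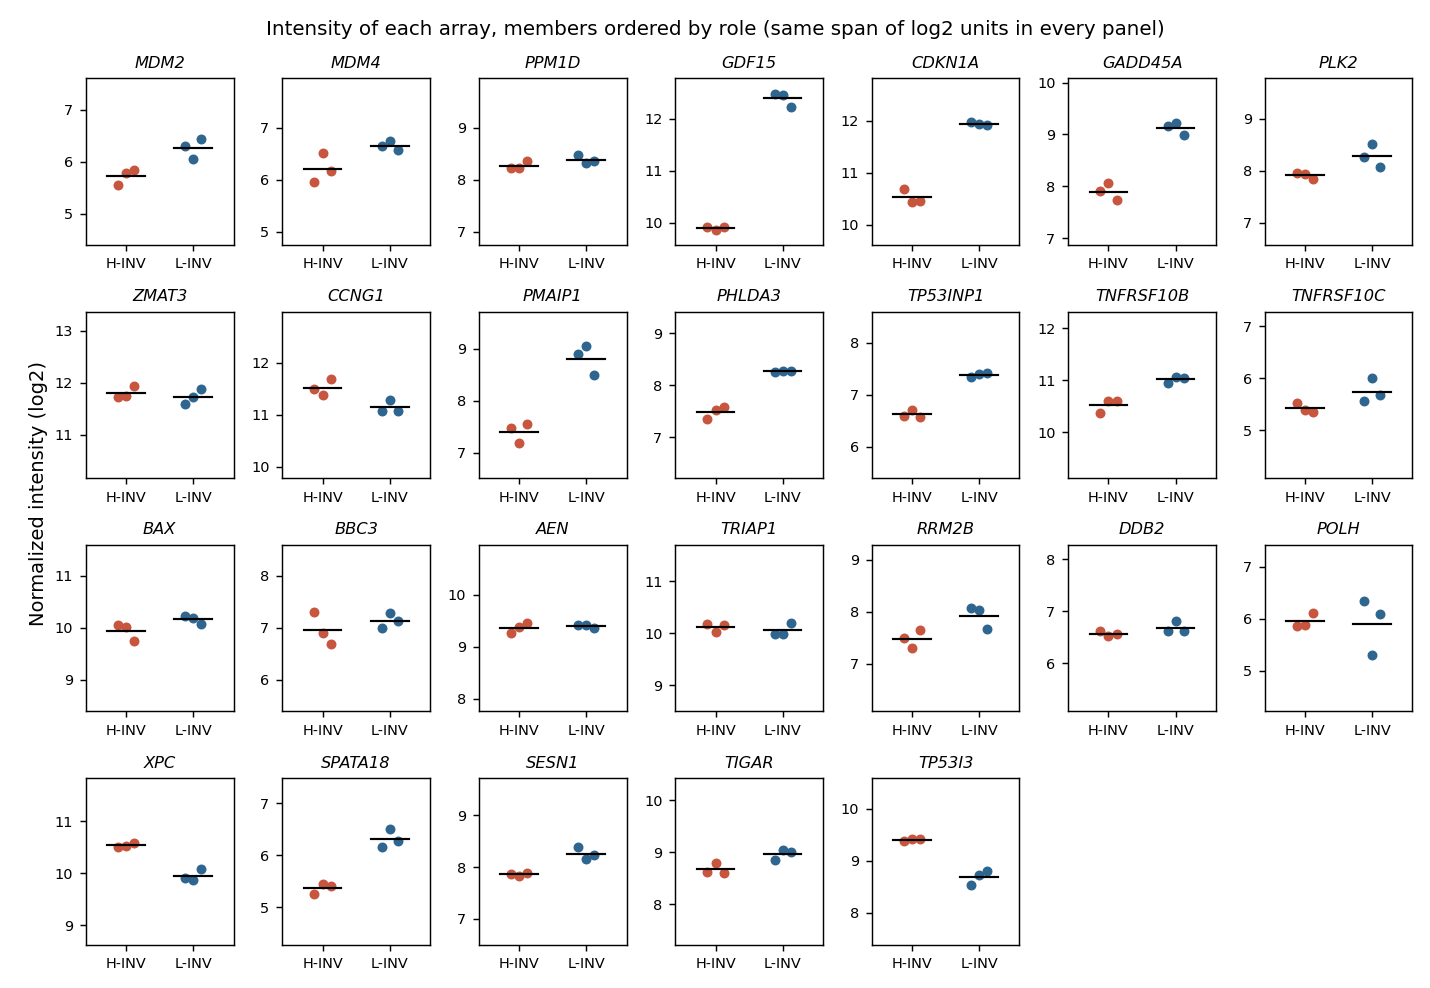
Normalized log2 intensity of each array for the 26 members tested, H-INV at the left and L-INV at the right of every panel, in order of role; points are arrays, bars are group means, and the span in log2 units is the same in every panel. The gaps of GDF15, CDKN1A, PMAIP1 and GADD45A are the widest, while the points of ZMAT3, AEN, TRIAP1, BBC3, PPM1D and POLH overlap between the groups.

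Among the apoptosis targets, the change was largest for PMAIP1 (NOXA), a BH3-only protein that neutralizes the survival protein MCL1. Its log2 intensities were 7.48, 7.18 and 7.54 in H-INV, against 8.90, 9.04 and 8.49 in L-INV. The L-INV arrays spread more widely than the H-INV arrays but all lay above them, and PMAIP1 fell by 1.41 ± 0.15 (2.65-fold lower, adjusted p = 7.4e-05, limma). The other BH3-only gene, BBC3 (PUMA), had 7.29, 6.89 and 6.68 in H-INV and 6.99, 7.28 and 7.13 in L-INV. H-INV array 1 exceeded every L-INV array, and the difference of -0.18 (95% interval -0.52 to 0.16) did not pass, though without that array it was -0.35 (adjusted p = 0.0300). BAX, which forms pores in the outer mitochondrial membrane, had 10.06, 10.02 and 9.75 in H-INV against 10.23, 10.19 and 10.08 in L-INV. The arrays stood apart by a narrow gap, and the difference of -0.22 did not pass (adjusted p = 0.0735). It passed in 5 of 17 alternatives, among them the one without H-INV array 1 (adjusted p = 0.0497). With the mean of the BAX probes it was -0.01 (adjusted p = 0.925).

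PHLDA3, which competes with AKT for membrane lipids, had 7.35, 7.53 and 7.59 in H-INV against 8.25, 8.28 and 8.28 in L-INV. All H-INV arrays were lower, and it fell by 0.78 ± 0.08 (1.71-fold lower, adjusted p = 4.76e-05). TP53INP1, a nuclear stress protein that promotes the apoptotic response, had 6.60, 6.70 and 6.58 in H-INV against 7.34, 7.41 and 7.41 in L-INV. It fell by 0.76 ± 0.07 (1.69-fold lower, adjusted p = 2.25e-05) with no overlap between the groups. 

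The death receptor TNFRSF10B (DR5), which binds the ligand TRAIL, had 10.38, 10.60 and 10.60 in H-INV against 10.96, 11.06 and 11.05 in L-INV. Its H-INV arrays all lay below its L-INV arrays, and it fell by 0.50 ± 0.08 (adjusted p = 0.000921). TNFRSF10C, a decoy receptor of the same ligand, had 5.52, 5.40 and 5.35 in H-INV against 5.56, 6.00 and 5.68 in L-INV, and was above background on 2 of the 3 H-INV arrays. The arrays just missed overlapping, and its fall of 0.32 (adjusted p = 0.0416) was lost in 12 of the 16 alternatives that gave it a value, among them those without H-INV array 2 or 3 or L-INV array 2 or 3 (adjusted p = 0.0975, 0.113, 0.104 and 0.0554). AEN, a nuclease that degrades DNA in apoptosis, and TRIAP1, a small inhibitor of the apoptosome, had overlapping arrays and differences of -0.04 (adjusted p = 0.686) and 0.06 (adjusted p = 0.589).

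FAS, the receptor of FAS ligand, was above background on 0 of 6 arrays. TP53I11, a gene named for its induction by p53, had 2 probes. The brighter one was above background on 2 H-INV arrays and 0 L-INV arrays and the other on 0 arrays, so the gene was not tested. The brighter probe had log2 intensities of 5.42, 6.06 and 5.54 in H-INV against 4.68, 4.58 and 4.78 in L-INV. Without the detection filter its signal was higher in H-INV by at least 1.15-fold (adjusted p = 0.00242), the one apoptosis target that was then called higher.

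The repair targets moved in both directions. XPC, which recognizes bulky lesions in nucleotide excision repair, had 10.50, 10.52 and 10.59 in H-INV against 9.90, 9.87 and 10.09 in L-INV. Every H-INV array was higher, with a log2 fold change of 0.58 ± 0.08 (1.50-fold higher, adjusted p = 0.000281, limma). DDB2, which finds ultraviolet damage in the same pathway, had 6.61, 6.53 and 6.56 in H-INV against 6.62, 6.82 and 6.62 in L-INV, a difference of -0.12 that did not pass (adjusted p = 0.220). RRM2B, the p53-inducible subunit of ribonucleotide reductase, had 7.50, 7.29 and 7.65 in H-INV against 8.07, 8.04 and 7.67 in L-INV. H-INV array 3 and L-INV array 3 were nearly level, and its fall of 0.44 ± 0.13 (adjusted p = 0.0167) did not pass without H-INV array 2, L-INV array 1 or L-INV array 2 (adjusted p = 0.0574, 0.0584 and 0.0552). POLH, a polymerase that copies past ultraviolet lesions, had 5.86, 5.87 and 6.11 in H-INV, inside the range of 6.33, 5.29 and 6.08 in L-INV, where it was above background on 2 of 3 arrays.

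All 4 metabolic targets tested passed, 3 of them lower. SPATA18 (MIEAP), a protein of mitochondrial quality control, had 5.25, 5.44 and 5.40 in H-INV against 6.15, 6.50 and 6.28 in L-INV. It was above background on 1 of the 3 H-INV arrays and all 3 L-INV arrays, and fell by 0.95 ± 0.10 (1.93-fold lower, adjusted p = 7.61e-05, limma). Its signal in H-INV lay near the floor of the arrays, so the size of this fall depends on the background correction, and without it the fall was 0.35. SESN1, a sestrin that restrains mTORC1, had 7.86, 7.82 and 7.89 in H-INV against 8.38, 8.16 and 8.24 in L-INV. The H-INV arrays were tightly grouped below the L-INV arrays, and SESN1 fell by 0.40 ± 0.08 (adjusted p = 0.00215).

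TIGAR, a phosphatase that slows glycolysis, had 8.62, 8.80 and 8.60 in H-INV against 8.85, 9.04 and 9.01 in L-INV. Its fall of 0.29 ± 0.09 (adjusted p = 0.0174) did not pass without H-INV array 1, H-INV array 3 or L-INV array 2 (adjusted p = 0.0545, 0.0573 and 0.0590). TP53I3 (PIG3), a quinone oxidoreductase, moved the other way, with 9.37, 9.43 and 9.43 in H-INV against 8.55, 8.72 and 8.81 in L-INV. The H-INV arrays all exceeded the L-INV arrays, and its log2 fold change of 0.72 ± 0.08 (1.65-fold higher, adjusted p = 9.93e-05) was the largest rise among the members tested.

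Another probe of the same gene did not always give the same answer. Beside the brightest probe, 12 further probes of 10 members were above background. Of these, 7 gave the same call, 5 another call and 0 an opposite one. For CDKN1A, GADD45A, PMAIP1, TP53INP1 and RRM2B the further probe also fell, by 1.05, 0.93 and 0.70 on the log2 scale for GADD45A, PMAIP1 and RRM2B. The further probes of CDKN1A and TP53INP1 were above background on 0 H-INV arrays, so only bounds can be given, at least 1.91-fold and at least 1.41-fold lower in H-INV.

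ZMAT3 and TP53I3 were the members whose probes differed most. Both further probes of ZMAT3 fell while its brightest did not pass. ILMN_1654262 had 9.01, 9.18 and 9.05 in H-INV against 9.83, 9.81 and 9.71 in L-INV (log2 fold change -0.70, adjusted p = 0.000128), and ILMN_1865764 had 8.11, 8.46 and 8.23 in H-INV against 8.98, 8.75 and 8.61 in L-INV (log2 fold change -0.52, adjusted p = 0.00778). With the mean of its probes ZMAT3 was lower in H-INV (log2 fold change -0.38, adjusted p = 0.00164). The further probe of TP53I3, ILMN_1651967, exceeded background on 1 array of H-INV and on 3 of L-INV, at 5.46, 5.75 and 5.28 in H-INV against 5.92, 5.72 and 5.60 in L-INV (log2 fold change -0.25, adjusted p = 0.154). So the rise of TP53I3 rests on 1 of its 2 probes, and with their mean it was 0.24 (adjusted p = 0.0252). For TNFRSF10B both further probes had negative values that did not pass (adjusted p = 0.0811 and 0.0757), and for BAX the further probe had a value of 0.20 (adjusted p = 0.156).

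**Figure D3:**
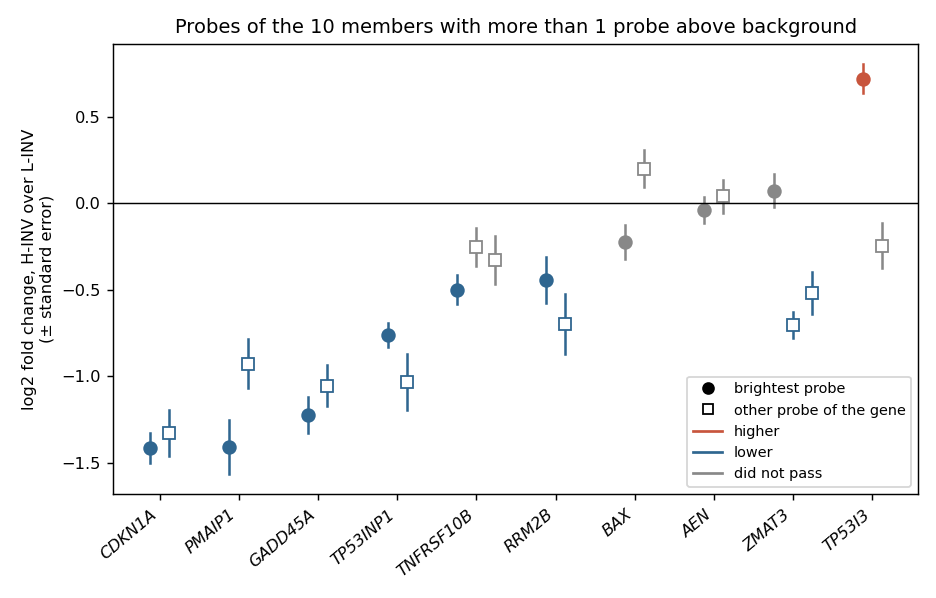
Log2 fold change, H-INV over L-INV, ± SE for every probe above background of the 10 members with more than 1 such probe; filled circles are the brightest probe, open squares the others, and colours give the call. The probes of CDKN1A, GADD45A, PMAIP1, TP53INP1 and RRM2B all lie below 0, whereas those of ZMAT3, TP53I3, BAX and AEN lie on both sides of it.

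Other genes of the pathway were taken from 4 lists, written with earlier results of these data known. The genes named from a list are its largest changes without overlap between the groups, unless stated otherwise. Of 25 further regulators of p53, 19 were tested, 8 higher (42.1%) and 4 lower (21.1%) in H-INV (median log2 fold change 0.03), shares near the 32.6% and 25.4% of all genes. COP1, a ubiquitin ligase of p53, had 10.15, 10.07 and 9.93 in H-INV against 10.68, 10.59 and 10.64 in L-INV and fell by 0.59 (adjusted p = 0.000225). SIRT1, a deacetylase of p53, fell by 0.45 (adjusted p = 0.00558, and 0.0764 when the pipeline of the study was rebuilt), and TP53BP2 and RPL23, named after their values were seen, were the other two that fell. TP53BP1, a scaffold at DNA breaks, and PPP1R13B (ASPP1), a p53 cofactor, rose by 0.47 (adjusted p = 0.000424) and 0.53 (adjusted p = 0.000813). The probes of CDKN2A, ATR, TP73, NPM1 and RCHY1 were above background on 0 arrays, which does not show that a gene is silent: NPM1 is abundant in proliferating cells and had 1 probe.

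Of 48 further p53 targets, 40 were tested, with 11 higher and 17 lower in H-INV and a median log2 fold change of -0.14. These shares were 27.5% and 42.5%, against 32.6% and 25.4% of all genes. Past a 2-fold change as well, 5 were higher and 4 lower, against 4.22% and 6.02% of all genes. The largest changes in this list went in both directions. PERP, a membrane protein of desmosomes and apoptosis, had 8.48, 8.44 and 8.69 in H-INV against 10.50, 10.50 and 10.20 in L-INV and fell by 1.86 (adjusted p = 1.61e-06), and FAM210B, a mitochondrial protein, fell by 1.94 (adjusted p = 1.55e-07). CASP1, the inflammatory caspase, had 8.00, 8.26 and 7.98 in H-INV and was above background on 0 L-INV arrays, at least 6.11-fold higher in H-INV (adjusted p = 2.15e-08). TGFA, a ligand of the EGF receptor, had 9.82, 9.75 and 9.91 in H-INV against 5.29, 5.67 and 5.23 in L-INV, where 1 array was above background (log2 fold change 4.43, adjusted p = 1.4e-08). With L-INV near the floor, the size of the TGFA difference depends on the background correction, and without it the log2 fold change was 2.82.

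p21 is known to act through the DREAM complex, which holds down many cell cycle genes. Of 25 genes listed as repressed by this route, 24 were tested, with 17 higher and 1 lower in H-INV (median log2 fold change 0.43). These shares were 70.8% and 4.17%, against 32.6% and 25.4% of all genes. The one that fell was CKS1B, named after its value was seen. CDC25A, the phosphatase that activates CDK2, had 9.65, 9.58 and 9.48 in H-INV against 8.25, 8.21 and 8.46 in L-INV (log2 fold change 1.26, adjusted p = 5.46e-06). PLK4, of centriole duplication, MCM5, of the replicative helicase, and PLK1, of mitotic entry, had log2 fold changes of 1.07, 0.95 and 0.85 (adjusted p = 8.25e-06, 9.79e-05 and 9.34e-05). CDKN1A and these genes thus differed in opposite directions between the same 6 arrays, and whether one bears on the other was not tested. The study reported a lower rate of BrdU incorporation in H460 H-INV cells than in L-INV cells. How fast the cells cycled was not measured by these arrays.

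GDF15, GADD45A, PMAIP1 and TNFRSF10B are also known targets of the stress factors ATF4 and CHOP, which act without p53. Of 18 genes listed for that response, 17 were tested, with 2 higher and 14 lower in H-INV, and a median log2 fold change of -0.93. These shares were 11.8% and 82.4%, against 32.6% and 25.4% of all genes. Past a 2-fold change, 1 was higher and 8 lower, against 4.22% and 6.02% of all genes. DDIT3, which encodes CHOP, had 7.58, 7.50 and 7.73 in H-INV against 9.55, 9.76 and 9.57 in L-INV and fell by 2.02 (adjusted p = 3.22e-07). ATF3, a related stress factor, and VLDLR, a lipoprotein receptor, fell by 1.93 (adjusted p = 4.33e-07) and 2.01 (adjusted p = 7.9e-06), and without background correction by 1.01 and 1.12. CHAC1, which degrades glutathione, was above background on 0 H-INV arrays and at least 2.42-fold lower in H-INV (adjusted p = 8.41e-08). CEBPB and SLC7A11, named after their values were seen, were the 2 that rose. The letters TGATGNAA of an ATF4-type element were searched on both strands of the same promoter windows. They were found in 1 of the 25 members with a window, PLK3, and in 3.62% of all windows. That count is too small to be told apart from the share of all windows. SESN2 is in this list and in that of further p53 targets. The part of this response in the fall of the p53 targets was not tested.

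**Figure D4:**
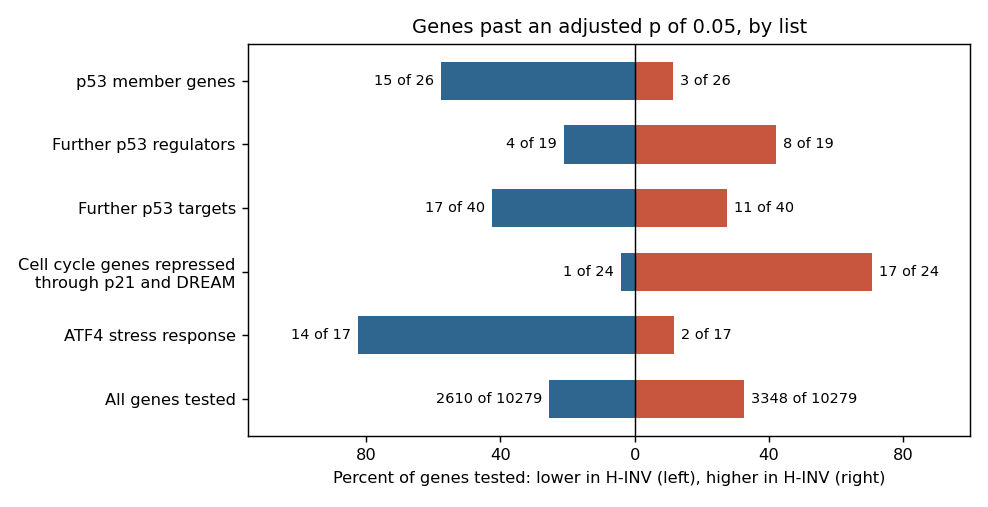
Percent of the genes tested in each list that were lower (left of 0) or higher (right of 0) in H-INV at an adjusted p under 0.05, with the counts beside the bars. Of the 26 member genes 15 were lower and 3 higher, of the genes repressed through p21 and DREAM 1 was lower and 17 higher, and of all 10279 genes 2610 were lower and 3348 higher.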

How the data were processed

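RNA of 3 H-INV and 3 L-INV sets was measured on an Illumina HT-12 v4 array. The submitters' notes name GenomeStudio and Partek. The deposited scanner table holds linear probe intensity, not normalized, and the authors deposited beside it a detection p-value per probe and array. The authors' second table holds background-corrected, quantile-normalized intensity and served as an alternative.

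Intensities were corrected by normexp (limma 3.58.1, R 4.3.3) with an offset of 16, the negative controls being estimated from detection p-values, then quantile-normalized and put on the log2 scale. Kept were 16941 probes with a detection p below 0.01 on 3 or more of the 6 arrays, and a gene was represented by its brightest probe. H-INV was compared with L-INV by lmFit and eBayes, two-sided, no covariate, Benjamini-Hochberg adjusted over 10279 genes. The median standard error was 0.0824 on the log2 scale. The number of arrays limits the precision. Where no array of a group detected a probe, only a bound is given: the brighter group's mean against the mean, over the dim group's arrays, of the higher of the array's floor and the probe's own value. The p53 response elements were read from RefSeq windows. The members, the lists and the tests were chosen with earlier results of these data known. All members are named; of each further list, up to 4 changed genes with the largest change and no overlap between groups, and others where so stated. Alternatives were the authors' table (40 added before log2), a one-way ANOVA per gene as in the methods, the pipeline of the study rebuilt (that table, no detection filter, ANOVA), no background correction, 75th percentile scaling, offset 50, other detection filters, the mean of a gene's probes, an eBayes trend, a block for the replicate number, and leaving out each array. The test was also run on simulated data with independent noise. Such data hold no effect of chip position and no dependence between arrays, so the run cannot speak to these limits.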

Additional observations from a re-analysis of the deposited data

How the results depend on the processing

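Of the 18 members called, 11 kept direction and call under all 17 alternatives, and 0 changed direction. They are GDF15, CDKN1A, GADD45A, PMAIP1, PHLDA3, TP53INP1, TNFRSF10B, SESN1, SPATA18, XPC and TP53I3, except that SPATA18 had no value where all 6 arrays had to be above background. The number of members lower in H-INV was 15 and became 9 when the pipeline of the study was rebuilt, where 10.3% of 20045 genes were lower and 12.5% higher; MDM2, MDM4, PLK2, TNFRSF10C, RRM2B and TIGAR lost their calls there (adjusted p = 0.0736, 0.161, 0.160, 0.234, 0.156 and 0.0993), which left 0 feedback genes lower, and so did CCNG1 (0.102), while 1 apoptosis target that the detection filter had removed was called higher. One-way ANOVA gave 10 lower and 2 higher members, and of all genes 22.1% were then lower and 28.3% higher. Leaving out each array in turn gave 10 to 15 lower members, the fewest without L-INV array 2, and 3 higher ones each time. In those fits 21.5% to 24.7% of all genes were lower and 27.5% to 32.4% higher. ZMAT3 turned to -0.38 with the mean of its probes. AEN turned to 0.005 with 75th percentile scaling and to 9e-04 with the mean of its probes, and ranged from -0.0832 to 0.0141 when each array was left out. POLH ranged from -0.2572 to 0.2623 when each array was left out. None of the AEN and POLH values passed. The replicate numbers do not pair the arrays (correlations of same-numbered deviations -0.067, -0.019 and -0.093). With the replicate block 15 members were lower and 3 higher, but BAX was gained (adjusted p = 0.0479) and TNFRSF10C lost (adjusted p = 0.0542). Of all genes 24.4% were then lower and 30.6% higher. The number of genes past both thresholds, 1053 in all, was 467 without background correction, 691 with offset 50 and 639 with all 6 arrays above background. Low signal limits SPATA18, TNFRSF10C and POLH, which were above background on only some arrays of a group. It also limits the sizes of the MDM2 and MDM4 falls, which were smaller without background correction.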
